A study of Mus musculus with 12 samples.

Results

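Choroid plexus epithelium secretes cerebrospinal fluid, and 8 of the genes that move water and ions across it were followed here through the hippocampus of *Fmr1* KO and WT mice given Nutlin-3 or vehicle. The 8 genes were the water channel *Aqp1*, the sodium bicarbonate cotransporter *Slc4a5*, the potassium channel genes *Kcne2* and *Kcnj13*, the chloride intracellular channel gene *Clic6*, the carbonic anhydrases *Car12* and *Car14*, and the cation channel *Trpv4*. They were a given list, taken by symbol from the 55421 gene identifiers counted, and all 8 were found and passed the filter on low counts. This list and the other gene lists below were chosen with earlier results of these data known. Counts of listed genes set beside shares of all genes therefore describe these data and are no independent support. The study asked whether a brief treatment with Nutlin-3, an inhibitor of the p53 ubiquitin ligase MDM2, leaves changes months later in mice that model fragile X syndrome.

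The 12 poly-A RNA libraries fell into 4 groups of 3. WT-Veh mice were wild type and received vehicle, WT-Nut3 mice were wild type and received Nutlin-3, KO-Veh mice lacked *Fmr1* and received vehicle, and KO-Nut3 mice lacked *Fmr1* and received Nutlin-3. By the labels and the methods of the study, injections were intraperitoneal at 2 months of age, 5 in all and of 10 mg/kg for Nutlin-3, and hippocampi were collected at 6 months. All groups were on a C57B/L6 background, and the KO was the inherited *Fmr1* knockout of the study, not its inducible conditional one. Whether these animals also carried the *Nestin*-GFP transgene used elsewhere in the study was not given in the sources used here. Libraries are named by group and by the RH number of the label (RH1 to RH16). The methods give 3 biological replicates for each condition, so the p-values measure the spread between these replicates. What the RH number stands for was not given in the sources used here, nor whether each replicate was a single mouse. Each library held between 17150820 and 20040482 counts on genes. The labels describe single reads and the methods paired-end reads, so a count, called a read here, may be a read or a pair of reads.

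The genotype labels were checked first. *Fmr1* stood at 77.5 ± 2.11 CPM (reads scaled to library size; SD, n = 3) in WT-Veh and 75.8 ± 2.26 in WT-Nut3. KO-Veh had 34.2 ± 2.72 CPM and KO-Nut3 31.6 ± 3.71. The highest KO library had 37.3 CPM and the lowest WT library 74.0, so the genotypes did not overlap, although *Fmr1* reads remained in the KO libraries. Markers of hippocampal neurons were present in every library: *Prox1*, *Neurod6*, *Wfs1*, *Spink8*, *C1ql2* and *Grp* summed to between 387 and 625 CPM.

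The choroid plexus is a folded sheet of ciliated epithelial cells over a leaky capillary bed, hanging in the ventricles beside the hippocampus. Its fluid output rests on the sodium pump, on bicarbonate made by carbonic anhydrases, on carriers that load and unload sodium, bicarbonate and chloride at opposite faces of the cell, on potassium channels that return potassium, and on AQP1 in the apical membrane, through which water follows. Several of these proteins are used elsewhere in the brain as well, carbonic anhydrases and TRPV4 in glia and neurons among them.

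Sequence next to the start sites is shown for 4 of the genes: *Slc4a5* and *Kcne2*, the 2 that passed the test in the comparison described below, *Kcnj13*, which holds a TATA box, and *Car14*, which holds the core of the OTX motif. OTX2 is the homeobox factor that maintains choroid plexus identity. The bases are from RefSeq (GRCm38.p6), lie upstream of the start and are written on the strand of the gene, and capitals mark the core of the OTX motif, a TATA box or a GC box, whose letters are given after the sequences and were searched on both strands; no matches overlapped. The capitals in the *Kcne2* stretch are the GC box on the other strand, and the *Slc4a5* start lies inside the span of the gene given below. Bases that fall in an annotated exon were left out.
Kcne2, chr16:92292139-92292388, plus strand: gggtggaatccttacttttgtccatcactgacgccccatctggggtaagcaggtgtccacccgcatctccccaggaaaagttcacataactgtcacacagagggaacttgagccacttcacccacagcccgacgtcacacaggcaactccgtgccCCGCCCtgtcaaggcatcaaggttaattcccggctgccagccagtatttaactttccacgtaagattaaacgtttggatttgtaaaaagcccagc
Slc4a5, chr6:83237293-83237374, plus strand: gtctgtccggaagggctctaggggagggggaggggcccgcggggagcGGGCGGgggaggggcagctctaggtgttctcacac
Kcnj13, chr1:87394730-87394829, minus strand: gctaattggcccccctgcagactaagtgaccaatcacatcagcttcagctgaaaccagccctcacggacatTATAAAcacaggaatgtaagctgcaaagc
Car14, chr3:95904692-95904785, minus strand: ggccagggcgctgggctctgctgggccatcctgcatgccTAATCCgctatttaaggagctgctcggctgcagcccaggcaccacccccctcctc

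RefSeq gave 8 windows of the 250 bases before a start for 7 of the genes (*Kcne2* has 2 starts; *Clic6* is not listed). The OTX core TAATCC was present in 1 of the 8 windows, that of *Car14*, where its first base lies 61 bases before the start, and in 6.25% of all 32851 promoter windows of that length. The TATA box TATAAA was present in 2 windows, 29 bases before the start of *Kcnj13* and 127 bases before that of *Slc4a5*, the latter outside the printed stretch, and in 12.4% of all windows. The GC box GGGCGG was present in 5 windows (*Slc4a5*, *Kcne2*, *Aqp1*, *Car12* and *Trpv4*) against 32.7% of all. The p53 half-site, the motif of the factor that Nutlin-3 stabilises, matched none of the 8 windows and 7.13% of all. These are matches of letters in a short window and do not show binding.

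Before the results by gene, 4 libraries have to be set apart. *Ttr*, the thyroid hormone carrier that is the most abundant transcript of choroid plexus epithelium, was between 3.15 and 18.2 CPM in 8 libraries but 4215 CPM in WT-Nut3 RH9, 3091 in KO-Nut3 RH6, 4520 in KO-Nut3 RH13 and 314 in KO-Nut3 RH8. The 12 choroid plexus markers (*Ttr*, *Folr1*, *Kl*, *Otx2*, *Tmem72*, *Prlr*, *Sostdc1*, *Calml4*, *Ecrg4*, *F5*, *Cldn2* and *Msx1*) summed to between 40.6 and 64.3 CPM in the other 8 libraries, where *Kl* was their most abundant gene. In the same 4 libraries they summed to 4790, 3572, 5129 and 399 CPM, with *Ttr* on top. No marker was at 0 reads in any library. All 4 libraries came from Nutlin-3 mice, but WT-Nut3 RH1 and RH14 were at 54.8 and 64.3 CPM, close to the 40.6 to 63.1 CPM of the vehicle libraries. *Otx2* followed the same libraries, with 22.4 CPM in RH9, 28.0 in RH6, 19.2 in RH13 and 3.04 in RH8, against 0.158 to 2.45 CPM in the other 8, where KO-Veh RH16 was highest. The part of these markers in the results below was not tested. In bulk tissue, fewer cells of a type and less RNA per cell cannot be told apart, here and in every value that follows.

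*Aqp1* (chr6:55336432-55348555, GRCm38, span of GENCODE M21 here and below) encodes the apical water channel of choroid plexus cells. WT-Veh libraries had 0.418, 0.368 and 0.412 CPM and KO-Veh libraries 0.671, 0.169 and 0.285 CPM, which rests on 3 to 13 reads a library. WT-Nut3 libraries had 0.456, 27.9 and 0.393 CPM, and KO-Nut3 libraries 23.1, 1.83 and 23.4 CPM, for RH1, RH9 and RH14 and for RH6, RH8 and RH13. The KO-Nut3 values all lay above every vehicle value, while in WT a single library was high. Between KO-Nut3 and KO-Veh the log2 fold change was 5.37 ± 0.94 (SE) with an adjusted p of 0.0666, from edgeR's quasi-likelihood test with Benjamini-Hochberg adjustment over all 22592 genes tested, which is the test behind every adjusted p below.

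*Slc4a5* (chr6:83219828-83304945) encodes an electrogenic sodium bicarbonate cotransporter. It had 1 or 2 reads in each WT-Veh library and 2 to 5 in each KO-Veh library. The level was 0.101, 37.4 and 0.280 CPM in WT-Nut3 RH1, RH9 and RH14, and 30.1, 3.44 and 37.6 CPM in KO-Nut3 RH6, RH8 and RH13. It rose between KO-Veh and KO-Nut3 by a log2 fold change of 6.83 ± 0.99 (SE, adjusted p = 0.0339), the largest of the 8 genes. Summed over 3 libraries, 1288 reads stood against 11, a ratio of 119 per effective library size with a 95% exact interval of 66.4 to 239 that covers counting error only.

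*Kcne2* (chr16:92292389-92298129) encodes an auxiliary subunit that pairs with potassium channel alpha subunits such as KCNQ1 in epithelia. Vehicle libraries held 2 to 7 reads each, or 0.113 to 0.361 CPM. WT-Nut3 RH1, RH9 and RH14 had 0.0507, 23.1 and 0.112 CPM, so the 2 lower libraries were under all WT-Veh values (0.179, 0.263 and 0.206 CPM). KO-Nut3 RH6, RH8 and RH13 had 19.5, 3.04 and 22.4 CPM. *Kcne2* rose by a log2 fold change of 5.83 ± 0.81 (SE, adjusted p = 0.0280) between KO-Veh and KO-Nut3.

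*Kcnj13* (chr1:87386363-87394729, minus strand) encodes the inward rectifier Kir7.1, a potassium channel of choroid plexus and retinal pigment epithelium. Of its 1270 exon bases, 623 are shared with *Gigyf2* on the other strand, and reads there are assigned to neither gene when strands are counted together, so its level is a low estimate. Vehicle libraries held 0 to 7 reads. The level was 0.203, 6.91 and 0.336 CPM in WT-Nut3 RH1, RH9 and RH14, and 4.21, 0.917 and 6.32 CPM in KO-Nut3 RH6, RH8 and RH13, the last 3 all above the vehicle maximum of 0.368 CPM. The log2 fold change between KO-Nut3 and KO-Veh was 4.48 ± 0.82 (SE, adjusted p = 0.0851).

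*Clic6* (chr16:92485736-92541243) encodes a chloride intracellular channel protein enriched in secretory epithelia. It had 1.02, 0.578 and 1.18 CPM in WT-Veh and 1.03, 1.69 and 3.87 CPM in KO-Veh (RH7, RH10 and RH16). WT-Nut3 RH1, RH9 and RH14 had 0.913, 87.8 and 2.24 CPM, and KO-Nut3 RH6, RH8 and RH13 had 75.8, 6.82 and 88.5 CPM. KO-Veh RH16 was the highest vehicle library, and the lowest KO-Nut3 library still lay above it. The log2 fold change between KO-Nut3 and KO-Veh was 4.71 ± 0.85 (SE, adjusted p = 0.0790).

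*Car12* (chr9:66713686-66766845), which encodes a membrane-bound carbonic anhydrase with its active site outside the cell, had 35.5 to 47.3 CPM in WT-Veh and 40.7 to 43.2 CPM in KO-Veh. It stood at 34.4, 97.8 and 42.9 CPM in WT-Nut3 RH1, RH9 and RH14 and at 61.5, 38.6 and 92.8 CPM in KO-Nut3 RH6, RH8 and RH13. KO-Nut3 RH8 thus lay below all 3 KO-Veh libraries, and *Car12* was the only one of the 8 genes whose KO-Nut3 and KO-Veh libraries overlapped. Its log2 fold change was 0.63 ± 0.24 (SE, adjusted p = 0.567), and it moved to 0.27 without KO-Nut3 RH13 and to 0.89 without KO-Nut3 RH8.

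*Car14* (chr3:95897768-95904691, minus strand) encodes a second membrane-bound carbonic anhydrase, and 445 of its 2543 exon bases are shared with *Aph1a* on the other strand. The level was 5.08 to 7.04 CPM in WT-Veh and 6.04 to 7.59 CPM in KO-Veh. In WT-Nut3 RH1, RH9 and RH14 it was 6.44, 17.8 and 6.56 CPM, and in KO-Nut3 RH6, RH8 and RH13 it was 18.2, 9.17 and 16.1 CPM. Here RH6 and not RH13 was the highest KO-Nut3 library, and the log2 fold change between KO-Nut3 and KO-Veh was 1.13 ± 0.23 (SE, adjusted p = 0.128).

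*Trpv4* (chr5:114622152-114658421, minus strand) encodes a calcium-permeable channel opened by osmotic, mechanical and thermal stimuli. Its level was 1.43 to 1.70 CPM in WT-Veh and 1.25 to 2.14 CPM in KO-Veh. WT-Nut3 RH1, RH9 and RH14 had 1.37, 22.4 and 1.63 CPM and KO-Nut3 RH6, RH8 and RH13 had 18.4, 3.72 and 21.4 CPM. The KO-Nut3 and vehicle libraries did not overlap, and the log2 fold change between KO-Nut3 and KO-Veh was 3.10 ± 0.56 (SE, adjusted p = 0.0784).

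**Figure D1:**
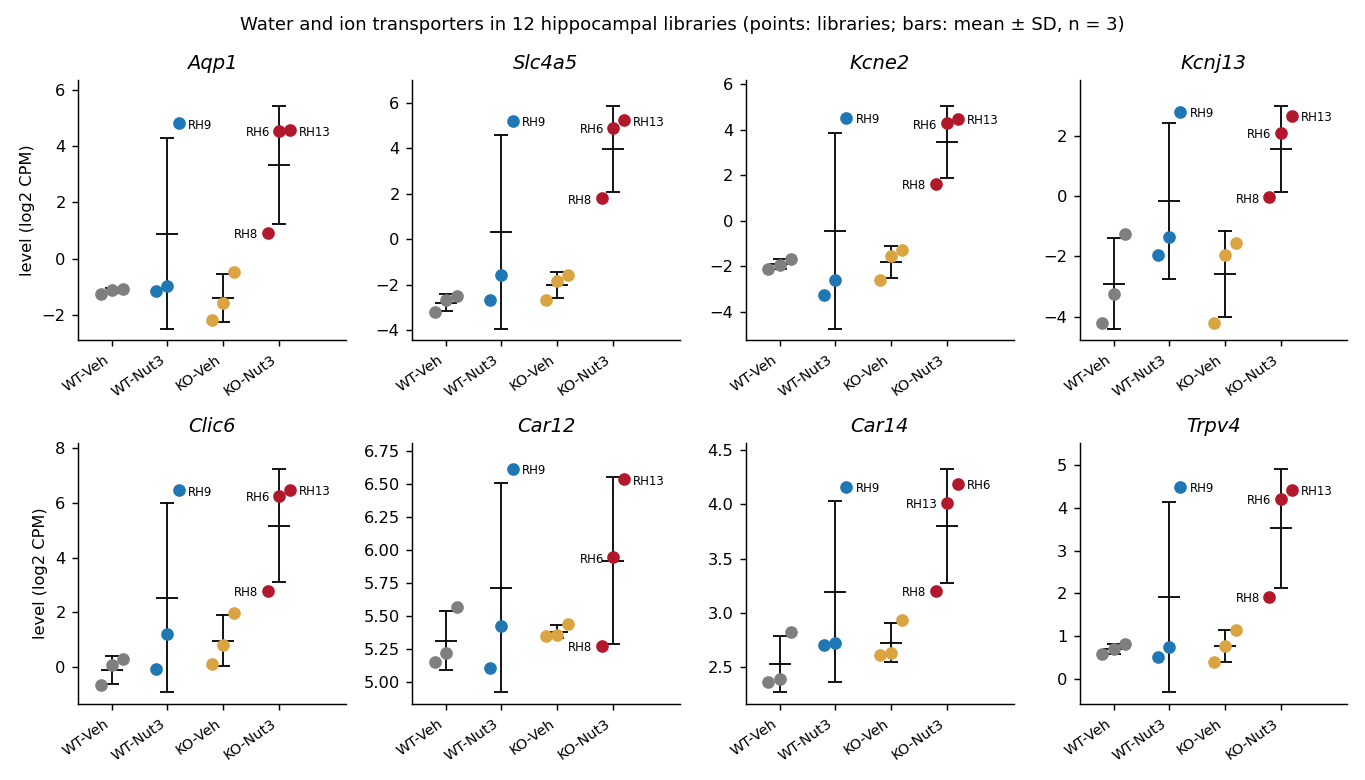
Level of each gene in the 12 libraries (vertical axis, log2 CPM with a prior count of 1, own range in each panel) by group, with points for libraries and bars for the mean ± SD of n = 3. WT-Nut3 RH9 and KO-Nut3 RH6 and RH13 are the 3 highest libraries of every gene, and KO-Nut3 RH8 comes next except for *Car12*, where it stands at 38.6 CPM.

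In sum for KO-Nut3 against KO-Veh, 2 of the 8 genes passed the test, both upward, where 0.199% of the 22592 genes tested passed it in either direction. All 8 log2 fold changes were positive, with a median of 4.59, beside a median of 0.0034 over all genes tested. All 8 had a positive change at an unadjusted p under 0.05, against 5.75% of all genes. Over the 12 libraries the 8 genes varied together. Pearson r of log2 CPM ran from 0.77 (*Kcnj13* and *Car12*) to 0.99 (*Slc4a5* and *Clic6*), so such counts are not 8 separate results. The KO-Nut3 libraries all exceeded the KO-Veh libraries for 7 of the 8, with *Car12* the exception, against 7.85% of all genes. DESeq2, the tool the study used, called 7 of the 8 in the same 6 libraries, again all but *Car12*, while it called 1.08% of all genes. The count changed with single libraries, as did the share of all genes called. Without KO-Nut3 RH8 edgeR called all 8 and 1.18% of all genes, without RH6 4 and 0.288%, and without RH13 1 and 0.181%. Without KO-Veh RH7, RH10 or RH16 it called none of the 8, and 0.0266%, 0.0266% and 0.031% of all genes. A fit of all 12 libraries together called none of the 8 (adjusted p = 0.298 for *Slc4a5*) and 0% of all genes, and with a term for RH number (up to 8 or from 9) none of the 8 and 0.0885% of all genes were called.

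In WT mice the estimates had wider errors for all 8 genes. Between WT-Nut3 and WT-Veh the log2 fold changes were 4.57 ± 1.43 (SE) for *Aqp1*, 7.02 ± 2.04 for *Slc4a5*, 5.12 ± 1.70 for *Kcne2* and 4.06 ± 1.34 for *Kcnj13*. They were 5.03 ± 1.46 for *Clic6*, 0.55 ± 0.31 for *Car12*, 0.84 ± 0.35 for *Car14* and 2.43 ± 0.89 for *Trpv4*. None of the 8 passed the test (adjusted p = 0.998 for each), as none of all genes did (0% called), and 7 of the 8, all but *Car12*, were positive at an unadjusted p under 0.05, against 1.84% of all genes. DESeq2 also called none of the 8, and 0% of all genes, while edgeR without the filter on low counts called all 8 and 0.693% of the 35930 genes then tested. The estimates rested on RH9: without it the log2 fold changes of *Kcne2*, *Car12* and *Trpv4* turned to -1.36, -0.045 and -0.068. Those of the others fell to 0.095 for *Aqp1*, 1.0019 for *Slc4a5*, 0.88 for *Kcnj13*, 0.76 for *Clic6* and 0.17 for *Car14*. The *Kcne2* value without RH9 rested on 1 read in RH1 and 2 in RH14, against 3 to 5 in each WT-Veh library.

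Whether the response differed between genotypes was tested by an interaction term fitted to the 12 libraries. The interaction estimates lay between -0.32 (*Clic6*) and 0.80 (*Aqp1*) on the log2 scale, each smaller than its SE (0.467 to 3.40). They turned with the setting: with a term for RH number those of *Slc4a5* and *Clic6* were 1.81 and 1.46, without WT-Nut3 RH9 they were 5.84 and 3.97, and leaving out 1 library also turned those of *Car12* (-0.28 without KO-Nut3 RH13) and *Kcnj13* (-1.72 without WT-Veh RH5). No gene of the 8 passed by edgeR (lowest adjusted p 0.994) or DESeq2, and none had an unadjusted p under 0.05. Of all genes 0% passed, with 942 at an unadjusted p under 0.05 and 1 by DESeq2. The SE was 0.467 for *Car12*, 0.492 for *Car14* and 1.28 for *Trpv4*, and between 2.25 and 3.40 for the other 5. With both genotypes pooled, Nutlin-3 against vehicle gave log2 fold changes from 0.59 ± 0.23 (SE, *Car12*) to 6.90 ± 1.29 (*Slc4a5*). The lowest adjusted p of the 8 was 0.155, so edgeR called none, and 0% of all genes were called. All 8 were positive at an unadjusted p under 0.05, against 5.02% of all genes. DESeq2 called 5 of the 8 and 0.35% of all genes, and edgeR without WT-Nut3 RH14 called 3 and 0.0841%.

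**Figure D2:**
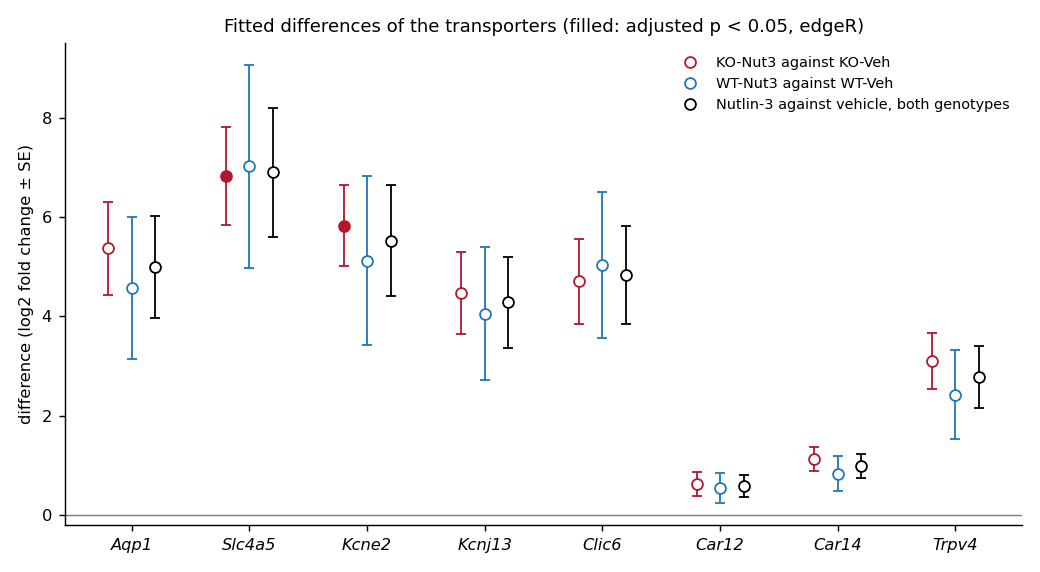
Log2 fold change ± SE of the 8 genes in KO (red), in WT (blue) and over both genotypes (black), where a filled point marks an adjusted p under 0.05. *Slc4a5* and *Kcne2* in KO are the 2 filled points, and for each gene the WT estimate has the widest bar.

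KO-Veh and WT-Veh, which ask for an effect of genotype without drug, overlapped for all 8 genes, while 5.9% of all genes were higher and 6.46% lower in all KO-Veh libraries. None was called by edgeR (lowest adjusted p 0.631) or DESeq2, beside 0.0177% of all genes by edgeR, 1 of the 8, *Clic6*, had an unadjusted p under 0.05, against 7.2% of all genes, and the median log2 fold change was 0.19. Under Nutlin-3 the 8 genes summed to 251, 67.5 and 309 CPM in KO-Nut3 RH6, RH8 and RH13. In WT-Nut3 RH1, RH9 and RH14 they summed to 43.9, 321 and 54.45 CPM. The genotype comparison under Nutlin-3 overlapped for all 8, and had a median log2 fold change of 0.75. That median rested on WT-Nut3 RH9: without it the median was 4.49, with log2 fold changes from 0.73 to 7.42 and still none of the 8 called (lowest adjusted p 0.277), and without each of the other 5 libraries in turn the median was 0.25 (without WT-Nut3 RH1) to 1.24 (without KO-Nut3 RH8). None of the 8 was called by edgeR (lowest adjusted p 0.928) or DESeq2 beside 0.00443% of all genes called by edgeR, and none had an unadjusted p under 0.05, against 4.87% of all genes. Of all genes, 5.3% were higher and 5.35% lower in all KO-Nut3 libraries. KO-Nut3 against WT-Veh shares its treated libraries with the first comparison and is no second test of them. There, *Slc4a5* had a log2 fold change of 7.93 ± 1.11 (SE), *Kcne2* of 6.06 ± 0.83 and *Clic6* of 5.94 ± 0.94, each with an adjusted p of 0.125, and 0.00443% of all genes were called. By edgeR none of the 8 was called, though all 8 were positive at an unadjusted p under 0.05, against 5.61% of all genes. DESeq2 called 7 of the 8 and 0.965% of all genes, and edgeR without KO-Nut3 RH8 called 7 and 0.872%. In 7 of the 8, all but *Car12*, the KO-Nut3 libraries lay above all of WT-Veh, against 7.92% of all genes.

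RH numbers up to 8 and from 9 differed in the share of reads that mapped to several places (3.07% to 3.22% against 3.33% to 3.55%), so the treated libraries were also set against vehicle libraries of the same range. Among numbers up to 8, KO-Nut3 RH6 and RH8 both exceeded KO-Veh RH7 for 7 of the 8 genes, all but *Car12*, as they did for 32.9% of all genes. Among numbers from 9, KO-Nut3 RH13 exceeded KO-Veh RH10 and RH16 for all 8 genes, and for 33.5% of all genes. In WT the low range held RH1 against RH2 and RH5, and RH1 was higher for 1 of the 8, *Aqp1*, and for 31.7% of all genes. In the high range RH9 and RH14 both exceeded RH15 for 5 of the 8, all but *Aqp1*, *Kcne2* and *Trpv4*, and for 31.3% of all genes. No test was run within these subsets.

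The differences in CPM were also taken, library by library. Against the median of the vehicle libraries of its genotype, *Car12* in WT-Nut3 RH9 was higher by 60.6 CPM and in KO-Nut3 RH13 by 52.0 CPM, where *Slc4a5* was higher by 37.3 and 37.4 CPM. In KO-Nut3 RH6 the order was the other way, with *Car12* higher by 20.7 CPM and *Slc4a5* by 29.9, and in RH8 the differences were -2.17 and 3.21 CPM. The vehicle level was 38.0% and 44.0% of the *Car12* level in RH9 and RH13, but 0.276% and 0.599% of the *Slc4a5* level. *Clic6* had a difference of 86.8 CPM in both of these libraries. *Car14* and *Trpv4* lay between, with the vehicle level at 29.2% and 7.05% of the level in RH9.

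Levels were compared between genes as RPKM, which divides CPM by the kilobases of exon not shared with another gene. In all 8 libraries with little *Ttr* and in KO-Nut3 RH8, *Car12* was highest and *Car14* second. In WT-Veh, *Car12* had 5.27 ± 0.84 RPKM and *Car14* 2.75 ± 0.52 (SD, n = 3), while the means of the other 6 genes were at most 0.385 RPKM, and their order changed from library to library. In WT-Nut3 RH9, KO-Nut3 RH6 and KO-Nut3 RH13 the order began with *Clic6* and then *Kcne2*, at 22.4 and 13.1 RPKM in RH9, 19.4 and 11.02 in RH6, and 22.6 and 12.6 in RH13. *Slc4a5*, which had the largest fold change, was next to lowest of the 8 in these libraries, with 6.44, 5.19 and 6.48 RPKM in the same order, and *Trpv4* was lowest.

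Within the 3 libraries of high level the genes kept similar proportions to each other. Per 100 reads of *Slc4a5* there were 74.6, 76.8 and 62.3 reads of *Aqp1* in RH9, RH6 and RH13, and 61.8, 64.6 and 59.4 reads of *Kcne2*. *Clic6* gave 235, 252 and 235 reads, and *Kcnj13* 18.5, 13.996 and 16.8. KO-Nut3 RH8 had 53.3 reads of *Aqp1*, 88.3 of *Kcne2*, 198 of *Clic6* and 26.7 of *Kcnj13* per 100 of *Slc4a5*, from 60 *Slc4a5* reads. Set against *Ttr*, *Slc4a5* had 8.86, 9.74, 8.32 and 10.96 reads per 1000 *Ttr* reads in RH9, RH6, RH13 and RH8. *Car12* had 23.2, 19.9 and 20.5 reads per 1000 *Ttr* reads in the first 3 and 123 in RH8. RH8 also lay above the first 3 for *Car14* (29.2 against 3.56 to 5.89) and *Trpv4* (11.9 against 4.74 to 5.96). The same held for *Kcne2* (9.68 against 4.95 to 6.30) and *Kcnj13* (2.92 against 1.36 to 1.64). *Aqp1* and *Clic6*, at 5.85 and 21.7 in RH8, lay within the range of the first 3.

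All 12 choroid plexus markers had positive log2 fold changes between KO-Nut3 and KO-Veh, with a median of 4.02. Of these, 4 passed the test, against 0.199% of all genes. *Tmem72*, a predicted membrane protein, rose by 8.27 ± 1.24 (SE, adjusted p = 0.0386), *Ttr* by 8.05 ± 0.99 (adjusted p = 0.0131) and the folate receptor *Folr1* by 5.11 ± 0.80 (adjusted p = 0.0456). *Ecrg4* (1500015O10Rik in the annotation), a secreted peptide precursor, rose by 4.29 ± 0.66 (adjusted p = 0.0456). *F5*, coagulation factor V, had 5.62 ± 0.90 (adjusted p = 0.0528). Markers of ependyma, the ciliated lining of the ventricles, also ran higher in these libraries: their sum was 37.9 CPM in RH9, 45.8 in RH6, 48.4 in RH13 and 37.4 in RH8, but 41.5 in KO-Veh RH16 and 13.4 to 29.9 in the other 7. *Foxj1*, which drives motile cilia, was their most abundant gene in each library. Between KO-Nut3 and KO-Veh 0 of the 6 tested were called. At an unadjusted p under 0.05, 3 were positive, against 5.75% of all genes, and the median log2 fold change was 0.72. The seventh, *Mia*, was under the filter with 7 reads in all. The part of ependyma in the result was not tested.

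Markers of meningeal and stromal fibroblasts were highest in a partly different set of libraries. They summed to 198 CPM in KO-Nut3 RH8 and 156 in WT-Veh RH5, and to between 47.4 and 93.6 in the other 10, with 86.0 and 86.2 in RH9 and RH13, the libraries with the highest sums of the transporters. *Aldh1a2*, the retinoic acid enzyme of the meninges, was at 21.7 CPM in RH8 and 14.9 in RH5, at 10.1 in KO-Nut3 RH6, and at 3.13 and 2.64 in RH9 and RH13, against 1.40 to 4.06 in the other 7. *Col1a2*, a collagen chain, was likewise at 39.2 CPM in RH8, 27.5 in RH5 and 23.2 in RH6, and at 11.9 and 14.004 in RH9 and RH13. By mean log2 CPM of the 8 markers the highest libraries were RH8 (4.35), RH5 (3.87) and RH6 (3.36), and RH9 and RH13 followed at 2.68 and 2.66, so RH8 and RH6 were high for both this list and the choroid plexus list. *Dcn*, decorin, was the most abundant gene of the list in 11 libraries, no marker of the list was at 0 reads, and none of the 8 was called by edgeR, although 7 of the 8, all but *Dcn*, were positive at an unadjusted p under 0.05 (5.75% of all genes), with a median log2 fold change of 1.37. Their part in the result was not tested. The transporters of WT-Veh RH5 were at vehicle level, at a sum of 47.4 CPM.

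The other cell types moved less. In KO-Nut3 against KO-Veh none of their markers was called, and the median log2 fold change was 0.22 for endothelium, 0.42 for red blood cells, 0.05 for astrocytes, 0.21 for oligodendrocytes, -0.06 for microglia and -0.18 for hippocampal neurons. All 6 neuron and all 6 microglia markers had negative changes, and all 6 oligodendrocyte and all 5 red blood cell markers positive ones. At an unadjusted p under 0.05, 3 of 7 endothelial and 2 of 6 oligodendrocyte markers were positive, against 5.75% of all genes, and none of the other 4 types. KO-Nut3 RH6 had the lowest sum of the neuron markers of all libraries (387 CPM). It also had the highest sums for red blood cells (84.7 CPM) and oligodendrocytes (6106 CPM). The part of these cell types in the result was not tested.

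**Figure D3:**
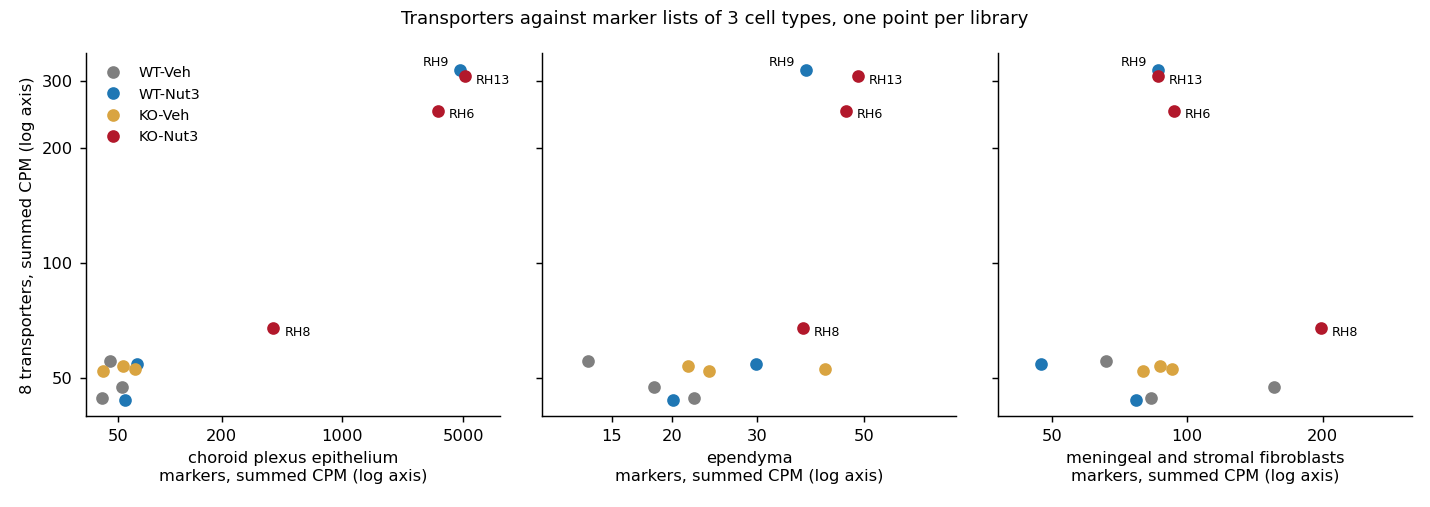
Summed CPM of the 8 transporters (vertical, log axis) against the summed CPM of 3 marker lists (horizontal, log axes), 1 point for each of the 12 libraries. The 3 libraries with sums of 251 to 321 CPM for the transporters are those with choroid plexus marker sums of 3572 to 5129 CPM, and the libraries with the highest fibroblast sums, RH8 and WT-Veh RH5, lie elsewhere.

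Other parts of the secretory machinery are shared with neurons and glia. Among 22 partners of fluid secretion, none was called between KO-Nut3 and KO-Veh, 15 log2 fold changes were positive and 7 negative, and the median was 0.09. At an unadjusted p under 0.05, 8 of the 22 were positive and 0 negative, against 5.75% of all genes positive. *Slc4a2*, the basolateral chloride bicarbonate exchanger, had 1.18 ± 0.27 (SE, adjusted p = 0.186), with 79.4, 33.1 and 81.7 CPM in KO-Nut3 RH6, RH8 and RH13 and 75.1 CPM in WT-Nut3 RH9, against 24.4 to 31.2 CPM in the other 8. *Slc12a2*, which encodes the cotransporter NKCC1, had 0.67 ± 0.11 (adjusted p = 0.0563), *Slc12a7* 0.65 ± 0.17 (adjusted p = 0.263) and *Fxyd1*, a regulator of the sodium pump, 0.61 ± 0.14 (adjusted p = 0.160). *Kcnq1*, whose channel KCNE2 can join, had -0.08 ± 0.48 at 0.333 to 1.63 CPM, and is named after its values were seen.

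Among 12 other carriers of choroid plexus cells all log2 fold changes were positive, with a median of 0.88. Of these, 9 had an unadjusted p under 0.05, against 5.75% of all genes positive, and 2 were called, against 0.199%. *Slc13a4*, a sulfate transporter, rose by 2.74 ± 0.21 (SE, adjusted p = 0.00144) and *Abca4*, a lipid transporter, by 2.91 ± 0.41 (adjusted p = 0.0315). Their patterns over the libraries were unlike: *Abca4* had 29.0 CPM in WT-Nut3 RH9 and 25.2, 7.96 and 28.6 in KO-Nut3 RH6, RH8 and RH13, while *Slc13a4* had 26.1 CPM in RH9, 36.7, 37.3 and 29.4 in KO-Nut3, and 25.1 in WT-Veh RH5. *Slc13a4* was thus as high in RH8 as in RH6, and RH8 and RH5 were the libraries with the highest fibroblast sums. *Slc16a8*, a lactate carrier, had 2.50 ± 0.58 (adjusted p = 0.183) and *Slc28a3*, a nucleoside carrier, 2.40 ± 0.996 (adjusted p = 0.618).

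The other members of the same gene families gave no calls by edgeR between KO-Nut3 and KO-Veh. At an unadjusted p under 0.05, 3 of the 13 carbonic anhydrases, 2 of the 9 SLC4 genes and 1 of the 4 CLIC genes tested were positive. None was in the other families, and 5.75% of all genes were positive at that cut. Of 10 other aquaporins 4 were tested, with a median log2 fold change of 0.07. *Aqp4*, the water channel of astrocyte endfeet, had 0.12 ± 0.08 (SE, adjusted p = 0.771), *Aqp5* 0.99 ± 0.84, *Aqp9* -0.12 ± 0.31 and *Aqp11* 0.01 ± 0.13. The 9 other SLC4 genes had a median of 0.10, with *Slc4a1*, the anion exchanger of red blood cells, at 2.98 ± 1.16 (adjusted p = 0.579) on 29 reads in all 12 libraries, *Slc4a9* at 1.49 ± 0.86 and *Slc4a11* at 0.69 ± 0.46. Medians were 0.15 for the 3 tested KCNE genes, 0.02 for 12 inward rectifiers, 0.25 for 4 CLIC genes, 0.17 for 13 carbonic anhydrases and 0.08 for 4 TRPV genes.

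Among those with the largest changes, *Kcne3* had -0.75 ± 0.88 (SE), *Kcnj5* 1.06 ± 0.56, *Kcnj10*, the glial rectifier Kir4.1, 0.27 ± 0.20, and *Clic1* 0.34 ± 0.15. *Car13*, a cytosolic carbonic anhydrase, had 1.77 ± 0.36 (adjusted p = 0.121), more than *Car12* and *Car14*, *Car8* had 1.05 ± 0.31 (adjusted p = 0.352) and *Trpv6* 0.38 ± 0.20. *Car13* did not share the library pattern of the 8 genes, with 2.00, 3.04 and 1.59 CPM in KO-Nut3 RH6, RH8 and RH13 but 0.894 CPM in WT-Nut3 RH9.

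**Figure D4:**
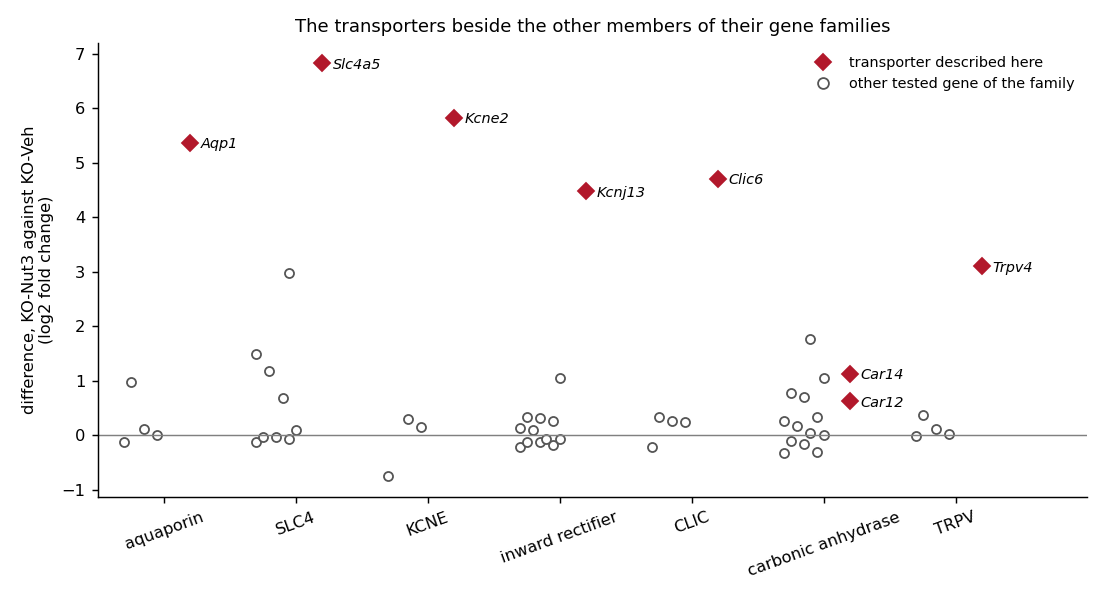
Log2 fold change between KO-Nut3 and KO-Veh (vertical axis) for the 8 transporters (red diamonds) and the other tested genes of their 7 families (open circles). Except for *Car12* and *Car14*, each transporter lies above all other tested genes of its family. The highest of those other genes is *Slc4a1* at 2.98, in the family of *Slc4a5* at 6.83.

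Genes whose log2 CPM over the 12 libraries was most like the mean of the 8 transporters were sought among 15338 other genes with a mean of at least 1 CPM. The 10 nearest were *F5* (Pearson r = 0.996), *Mfrp* (0.990), *Rdh5* (0.989), *Enpp2* (0.989), *Sostdc1* (0.987), *Tmem72* (0.986), *Mdfic* (0.985), *Ttr* (0.980), *Col9a3* (0.980) and *Ecrg4* (0.980). Of these, 5 were on the choroid plexus marker list and the other 5 on no list. *Mfrp* and *Rdh5* are known from the retinal pigment epithelium and *Enpp2* encodes autotaxin, at a mean of 557 CPM. Without WT-Nut3 RH9 and KO-Nut3 RH13, the libraries farthest from the median, r was between 0.953 (*Col9a3*) and 0.990 (*F5*). The libraries fall into high and low levels, so these values describe which libraries are high and carry no p.

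The files also count each strand on its own, which served as a check on genes that overlap others. The strands held 48.2% to 51.7% of the reads of each of the 8 genes on the first, the pattern of a library without strand. *Kcnj13* had 373 reads over the 12 libraries with strands together but 963 and 934 on the single strands, and *Car14* 2066 against 1515 and 1628, the genes with exons shared with *Gigyf2* and *Aph1a*, since reads over 2 genes are set aside when strands are counted together. For the other 6 genes the single strands summed to the joint count.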

How the data were processed

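Hippocampal RNA was sequenced in 12 libraries, and the authors mapped the reads to mm10 with STAR, per the submitters' processing notes, and deposited raw counts per Ensembl gene for each library. The STAR version and the annotation release were not given in the sources used here. The count of both strands together was used, and a merged matrix of the same counts was left out. Between 21772933 and 25498894 reads a library were recorded, unmapped reads included. Identifiers were matched to GENCODE M21 (55154 of 55421).

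Genes with more than 20 reads over the 12 libraries were tested (22592). Each comparison of a pair of groups was fitted on its 6 libraries with edgeR 4.0.16 (quasi-likelihood test, TMM, R 4.3.3) and adjusted by Benjamini-Hochberg over all genes tested at 0.05. The interaction and the pooled Nutlin-3 effect were fitted on all 12. SE is the log2 fold change divided by the root of F. CPM used effective library sizes, and log2 CPM a prior count of 1. The test was also run on simulated data, but no outcome of that run is given here, so it supports no result.

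The 8 genes and all lists were chosen with earlier results of these data known. Up to 4 genes a list were named, those with the largest absolute log2 fold change between KO-Nut3 and KO-Veh, besides the choroid plexus markers and the 10 genes most like the 8. Alternatives were DESeq2 1.42.0, its size factors in edgeR, other filters, a single fit, a term for RH number, the single-strand counts and leaving out each library. Replicate numbers are the RH numbers of the labels, none of which occurs in more than 1 group, so no samples were paired. Intervals on read ratios cover counting error only.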

Additional observations from a re-analysis of the deposited data

How the results depend on the processing

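For KO-Nut3 against KO-Veh the number of the 8 genes called, 2 of 8 as reported, was 7 with DESeq2, 8 without a filter, 6 with the counts of the other strand (STAR column 4), 1 with edgeR's filterByExpr, and 0 in a single fit of the 12 libraries or with a term for RH number. Over all genes the count of 45 became 244 with DESeq2, 544 without a filter, 64 with STAR column 4, 34 with filterByExpr, 20 with the RH number term and 0 in the single fit. Leaving out 1 library moved the first count between 0 and 8 and the second between 6 (without KO-Veh RH7) and 266 (without KO-Nut3 RH8). The comparison was refitted in 14 ways, and none of the resulting 112 log2 fold changes of the 8 genes reversed. For 7 of the 8 all KO-Nut3 libraries exceeded all KO-Veh libraries, so leaving out 1 library could hardly have reversed their sign.

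For WT-Nut3 against WT-Veh, no filter gave 8 of the 8 and 249 genes, the RH number term 11 genes, and leaving out 1 library 0 to 1 genes. Leaving out 1 library moved the log2 fold change from -1.36 to 5.71 for *Kcne2*, from -0.045 to 0.82 for *Car12* and from -0.068 to 2.93 for *Trpv4*, each lowest without RH9. For KO-Veh against WT-Veh, DESeq2 called 27 genes, no filter 1 of the 8 and 272 genes, the single fit 1, the RH number term 21, and leaving out 1 library 2 to 11. For KO-Nut3 against WT-Nut3, DESeq2 called 7 genes, no filter 38, and leaving out 1 library 0 to 7. For KO-Nut3 against WT-Veh, DESeq2 called 7 of the 8 and 218 genes, no filter 8 and 416, the single fit 2 genes, the RH number term 3, STAR columns 3 and 4 2 and 3, and leaving out 1 library 0 to 7 of the 8 and 1 to 197 genes.

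For the interaction, DESeq2 called 1 gene, no filter 291, and leaving out 1 library 0 to 1. Its estimates changed sign to 1.81 for *Slc4a5* and 1.46 for *Clic6* with the RH number term, to 1.32 for *Slc4a5* with STAR column 4 and to -0.069 for *Kcne2* with STAR column 3. Leaving out 1 library moved it from -0.28 to 0.68 for *Car12*, from -0.79 to 5.84 for *Slc4a5*, from -1.72 to 3.62 for *Kcnj13* and from -0.91 to 3.97 for *Clic6*. For Nutlin-3 over both genotypes, DESeq2 called 5 of the 8 and 79 genes, no filter 8 and 539, the RH number term 3 genes, and leaving out 1 library 0 to 3 of the 8 and 0 to 19 genes. The cause of these changes was not tested. No paired analysis was possible because the groups share no RH numbers. In vehicle libraries and in WT-Nut3 RH1 and RH14, *Aqp1*, *Slc4a5*, *Kcne2* and *Kcnj13* had at most 13 reads each, which limits the precision of their fold changes.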
